A study of Mus musculus with 53 samples.

Results

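Meg3, a maternally expressed long non-coding RNA, was listed at 1 or more in 12 of 23 adult hematopoietic stem cells (HSCs) and under 1 in the other 11, and these Meg3-detected and Meg3-undetected cells, selected on their Meg3 value, were compared over every other row of their expression table. The cells were those with a column name of their own, 25 of the 26 adult HSC samples, less cells 23 and 24, whose Meg3 values were 110 and 11027 and share their digits. The study measured RNA in 48 single cells, among 53 samples in all. Adult HSCs were sorted from bone marrow of wildtype C57 mice, and their RNA was amplified by a poly(A)-based method with ERCC spike-in RNA. The other 22 cells were T1 pre-HSCs, an earlier stage of the lineage taken from the AGM region, where HSCs first arise, at embryonic day 11, of genotype mH19 delta_DMR/+ (12 cells, labelled KO) or mH19 flDMR/+ (10 cells, labelled wildtype). No label names the mouse, sex, age or sort of an adult HSC, so the 23 cells count as 1 sample and no test between the groups was possible.

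Meg3 lies in the imprinted Dlk1-Dio3 domain of chromosome 12. The maternal chromosome transcribes Meg3, Rian and Mirg, the last of which carry snoRNAs and microRNAs, while the paternal one expresses the protein-coding genes Dlk1, Rtl1 and Dio3. The domain is known for its imprinting control region upstream of Meg3 and for a role of its maternal transcripts in the upkeep of HSCs. H19, the RNA at the centre of the study, is another maternally expressed imprinted non-coding RNA.

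The promoter of Meg3 is shown because the transcript from this window sorted the cells. It is the RefSeq window from 250 bases before to 50 bases after the gene's start on the plus strand, chr12:109540746-109541045 in GRCm38.p6, with 2 motifs in capitals.

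Meg3 promoter: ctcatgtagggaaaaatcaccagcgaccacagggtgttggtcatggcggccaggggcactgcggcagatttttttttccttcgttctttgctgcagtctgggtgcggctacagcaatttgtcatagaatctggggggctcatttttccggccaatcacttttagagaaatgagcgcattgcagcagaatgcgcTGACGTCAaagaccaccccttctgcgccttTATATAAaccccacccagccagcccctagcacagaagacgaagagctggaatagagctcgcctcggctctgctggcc

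The first motif, TGACGTCA, is the palindrome to which CREB-family factors bind and starts at position -57 from the RefSeq start. The second, TATATAA, is a TATA box and starts at position -27. On either strand, TGACGTCA stood in 1.79% and TATATAA in 3.24% of 32851 RefSeq promoter windows. Of the rows compared below, 328 had such a window, and 8 and 7 of these held the motifs. These matches describe letters in a window and are not binding sites.

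Meg3 itself chose the groups, so its values are a description. In the Meg3-detected cells it was 2.07 in cell 17, 17.2 in cell 5, 22.5 in cell 13, 31.2 in cell 7, 55.8 in cell 1, 106 in cell 4, 124 in cell 20, 156 in cell 9, 183 in cell 8, 245 in cell 22, 394 in cell 2 and 506 in cell 6, with a median of 115. In the Meg3-undetected cells it was listed at 0 in 9, at 0.712 in cell 3 and at 0.874 in cell 14. Nearest to the threshold of 1 were thus cell 17 just inside and cells 14 and 3 just outside. The values of the table name no unit and were read as FPKM, a density of fragments scaled to transcript length and library total.

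**Figure D1:**
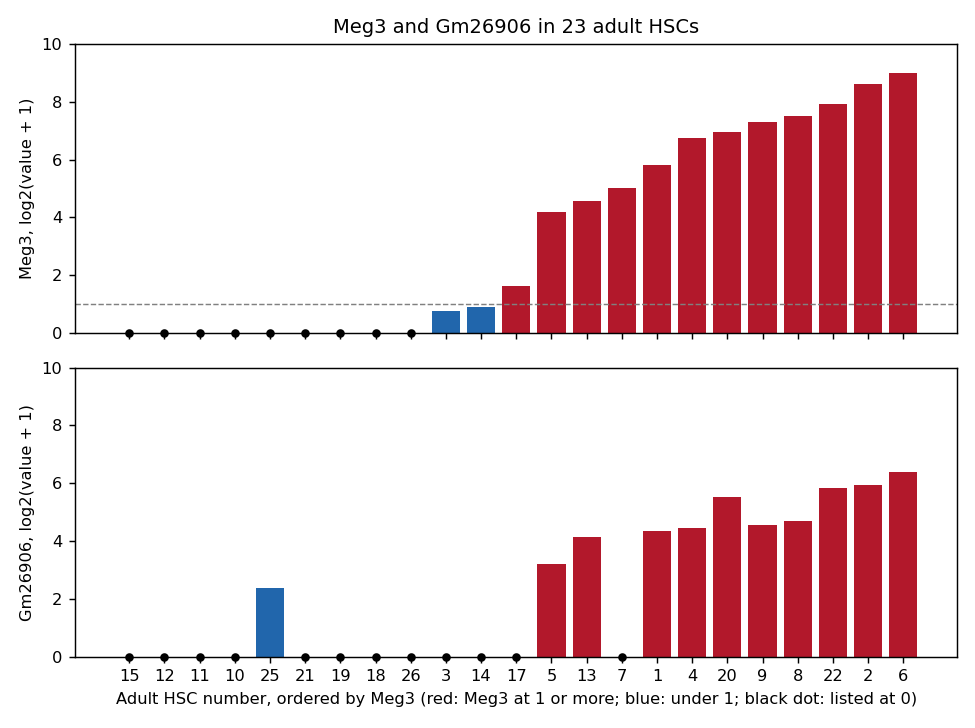
Meg3 (top) and Gm26906 (bottom) as log2(value + 1) in each of 23 adult HSCs, ordered by Meg3, with red bars for cells at 1 or more (n = 12), blue for cells under 1 (n = 11), dots for values listed at 0 and a dashed line at log2(value + 1) of 1. Gm26906 was above 0 in 10 of the 12 Meg3-detected cells and in cell 25 of the others.

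Values from 1 to under 10 need care throughout. Of 15155 values above 0 in the 23 cells, 11091, or 73.2%, lay in that decade, at 1005 to 1220 values per bin of 0.1 on the log10 scale. The bins from 0.1 to 1 held 173 to 215 values each and those from 10 to 100 held 138 to 220, and no value lay under 0.1. In the T1 pre-HSC table, by contrast, 29.4% of values above 0 were under 0.1 and 18.0% were from 1 to under 10. Of the adult values, 709 were written in exponent form, all of them with exponent 0. How the excess arose was not tested, so a value in that decade is not read here as a firm level, and counts of cells at 10 or more are added for rows that rest on it. The Meg3 value of cell 17 is one of these.

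**Figure D2:**
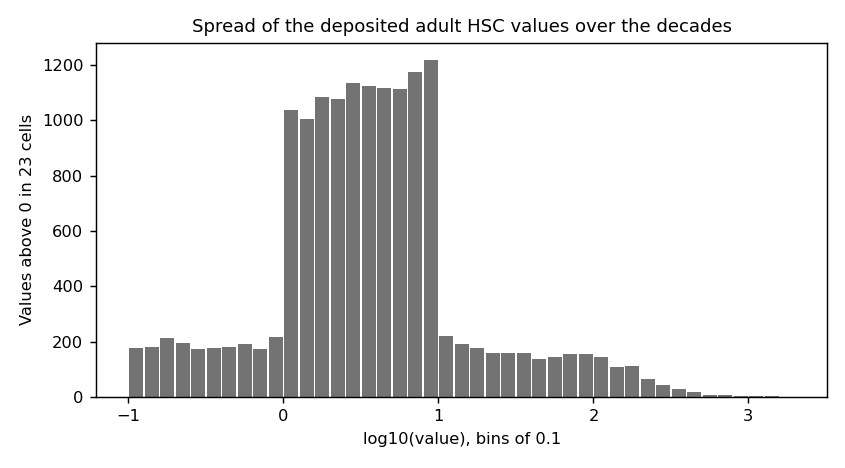
Number of values above 0 in 23 adult HSCs per bin of 0.1 of log10(value). The 10 bins from 1 to 10 hold 1005 to 1220 values each, with a step on either side.

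The groups overlapped in the number of rows detected. A row stood at 1 or more for a median of 573.5 rows in Meg3-detected cells (range 477 to 760) and of 561 in Meg3-undetected cells (384 to 753). At 10 or more the medians were 95 (72 to 124) and 108 (39 to 128). The low end was held by Meg3-undetected cells alone. Cells 21, 25 and 26, with 384, 413 and 464 rows at 1 or more, lay under every Meg3-detected cell. At 10 or more, so did cells 25, 14 and 10, with 39, 46 and 71 rows. The table lists 6910 rows, nearly all long non-coding, and none of the coding genes that mark HSCs, other blood cells, stroma or cycling cells, so the label HSC could not be checked against markers.

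In 4 of the Meg3-undetected cells, numbers 10, 14, 21 and 25, Malat1 or Gas5, which most other cells held at high level, was listed at 0. Malat1 was 0 in cells 10, 14 and 25, and Gas5 in cells 14, 21 and 25. Their profiles correlated with the mean of the other cells at 0.320, 0.152, 0.271 and 0.113 (Pearson, over rows, as a description), against medians of 0.468 over the Meg3-detected and 0.477 over the Meg3-undetected cells. Low correlation was not confined to them: Meg3-detected cells 7 and 8 stood at 0.284 and 0.360. No Meg3-detected cell had either RNA at 0, but Gas5 was 1.87 in cell 7 and Malat1 2.51 in cell 8, both in the crowded decade. A Malat1 value of 0 was not always a lack of signal at its locus. RP24-458F14.4, a transcript model inside the Malat1 span, was 0 in cells 10 and 14 but 119 in cell 25. What sets the 4 cells apart was not tested. Differences are given over all 23 cells and, for the named rows and lists, without the 4 cells. Because the 4 were picked by Malat1 and Gas5 and all come from 1 group, a smaller difference of these 2 RNAs without them follows from the choice. Leaving out cells of either group with Malat1 or Gas5 under 10, which removes cells 7 and 8 as well, is therefore given beside it.

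Of 717 rows at 1 or more in at least 6 of the 23 cells, 50 were higher in the mean of log2(value + 1) by 1 or more in Meg3-detected cells, which is 6.97% of the rows compared. A further 29 rows, 4.04%, were lower by 1 or more. Over all 717 rows, 54.3% of differences were above 0, with a median of 0.04 and quartiles of -0.32 and 0.42. No row separated the groups without overlap, 0% of those compared. Without the 4 cells, 733 rows passed the same filter, and the balance turned: 28 were higher (3.82%) and 59 lower (8.05%). Over the original 717 rows, 18 of the 50 higher rows were then still higher by 1 and 5 changed sign, and 22 of the 29 lower rows were still lower by 1 and 1 changed sign. Of the 717, 47.0% were then above 0. Without cells 7 and 8 too, 29 of 650 rows were higher (4.46%) and 60 lower (9.23%).

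The decade from 1 to 10 also carried weight in these counts. Of the 717 rows, 475 never reached 10 in any cell, among them 9 of the higher and 6 of the lower rows. With values under 10 taken as 0, 82 rows could be compared, of which 29 were higher (35.4%) and 9 lower (11%), and the median difference was 0.49.

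**Figure D3:**
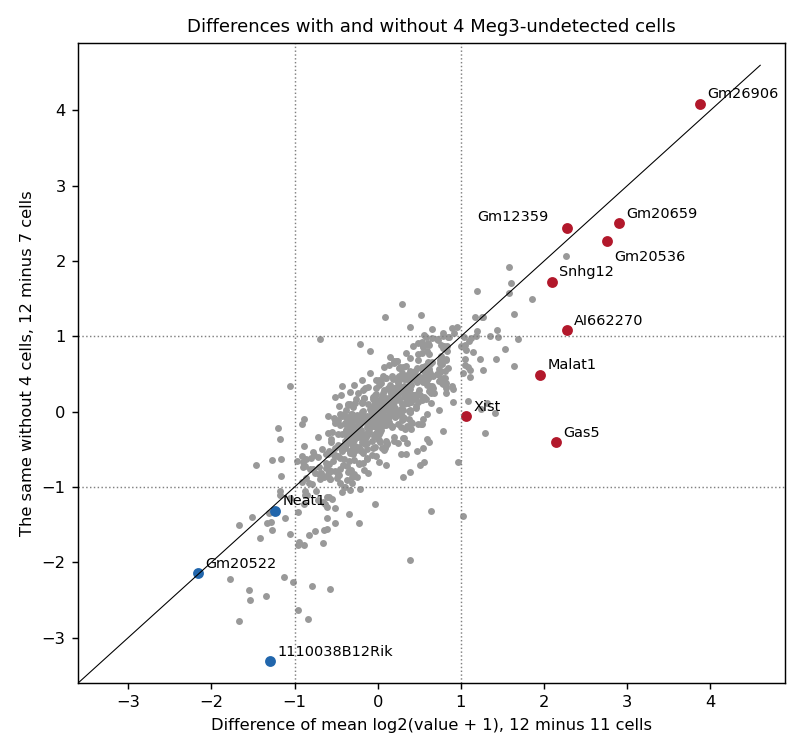
Difference of mean log2(value + 1) of 717 rows, Meg3-detected minus Meg3-undetected, over all 23 cells (x axis) and without cells 10, 14, 21 and 25 (y axis), with named rows in red (higher) and blue (lower), the diagonal, and dotted lines at 1 and -1. Gm26906 stays at the top right, at 3.87 and 4.09, while Gas5 moves from 2.15 to -0.40 and Xist from 1.06 to -0.06.

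The row with the largest difference was Gm26906, a transcript model at chr12:109568628-109571723 (build mm10, per the submitters' processing notes). All 3096 bases of its span lie inside that of Meg3, chr12:109541001-109571726, and it ends 3 bases before Meg3 does. The RefSeq span of Rtl1, a protein-coding gene of the domain, overlaps it as well. Gm26906 was 0 in cells 7 and 17, 8.28 in cell 5, 16.7 in cell 13, 19.3 in cell 1, 20.9 in cell 4, 22.5 in cell 9, 24.7 in cell 8, 44.9 in cell 20, 55.9 in cell 22, 60.5 in cell 2 and 82.0 in cell 6. Among Meg3-undetected cells it was 4.16 in cell 25 and 0 in the other 10. The groups overlapped only through cells 7, 17 and 25.

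Gm26906 was at 1 or more in 83.3% of Meg3-detected cells (95% Clopper-Pearson interval 51.6 to 97.9, counting error only) and in 9.09% of the others (0.230 to 41.3), and at 10 or more in 9 against 0 cells. Its mean log2(value + 1) was 4.09 ± 2.1 (SD, n = 12 cells) against 0.22 ± 0.71 (SD, n = 11 cells), a difference of 3.87. In the 10 cells with both, the ratio of Gm26906 to Meg3 ran from 0.135 to 0.743 with a median of 0.213. Spearman's rho between the rows was 0.88 over 23 cells and 0.95 over the 12 Meg3-detected cells, a description of points that share libraries and genomic bases. The sources used here do not state a strand for the counting, so reads of the rows cannot be told apart and Gm26906 is not independent of the rule.

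The other maternal RNAs of the domain were rare. Rian, which hosts box C/D snoRNAs, was 119 in cell 4, 1.83 in cell 8 and 0 in the other 21 cells. Mirg, a microRNA host, was 96.8 in cell 22, 1.05 in cell 12 and 0.179 in cell 2, with 0 in the other 20. Both high values stood in Meg3-detected cells, with Meg3 at 106 in cell 4 and 245 in cell 22, while 10 of the 12 Meg3-detected cells held no Rian at 1 or more. Cell 6, with the highest Meg3 value of 506, held both RNAs at 0. With so few cells no difference was detectable, and neither row entered the comparison.

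Within 1 Mb of Meg3 the table lists 9 rows, of which 7 reached 1 in some cell and 1, Gm26906, was compared. B830012L14Rik and Gm16596 were 0 in all 23 cells. RP23-204I16.3 was 2.47 in cell 1 and 1.40 in cell 10. Dio3os, antisense to Dio3, was 1.65 in cell 10 alone. Gm26945 and Gm28498 were likewise above 0 in 1 Meg3-undetected cell each, and these last 3 rows are among those whose order in the table follows their values, as given among the closing observations.

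Farther along chromosome 12, 21 rows were compared, 10 with differences above 0 and 11 below, with a median of -0.05 against 0.04 over all rows. One of these passed 1, Gm28933 at chr12:99190078-99191484, inside the gene of the transcription factor Foxn3. Its values in Meg3-detected cells had a lowest of 0, a median of 28.4 and a highest of 357, with 8 of 12 cells at 10 or more. In Meg3-undetected cells they were 0, 0 and 371, with 4 of 11 at 10 or more. The difference of 1.42 was -0.02 without the 4 cells, all of which were at 0.

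Of the 50 higher rows, 66% overlapped a RefSeq protein-coding gene, against 58.6% of the 29 lower rows and 55.9% of all 717. Among the higher rows with such an overlap were the next 3 after Gm26906. Gm20659 (chr11:101971143-101971859) overlaps Dusp3, which codes for a phosphatase. It was 0 in 5 Meg3-detected cells, 0.454 in cell 8, 25.0 in cell 4 and 159 to 232 in cells 13, 20, 9, 1 and 22. In Meg3-undetected cells it was 122 in cell 12, 0.742 in cell 11 and 0 in the other 9. The difference was 2.90 (3.61 ± 3.77 against 0.70 ± 2.08, SD, n = 12 and 11 cells) and 2.50 without the 4 cells. All cells with Gm20659 were thus either high or near 0, with little between.

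Gm20536 (chr6:72609836-72616190), in the gene of the trans-Golgi protein Tgoln1, was 116 to 163 in cells 13, 20, 2, 5 and 4, and 1.80 to 5.86 in cells 6, 8, 22 and 17. It was 0 in cells 1, 7 and 9. In Meg3-undetected cells it reached 25.3 in cell 11, 6.21 in cell 26 and 3.57 in cell 3, with 0.139 or 0 in the rest. The 5 highest values were all from Meg3-detected cells, and the difference was 2.75, or 2.26 without the 4 cells.

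Gm12359 (chr11:98797707-98810087) overlaps Casc3, a core part of the exon junction complex, and Msl1, a subunit of a histone acetyltransferase complex. It was at 1 or more in 9 of 12 Meg3-detected cells, or 75% (interval 42.8 to 94.5), and in 1 of 11 others, or 9.09% (0.230 to 41.3). The 5 cells at 10 or more were all Meg3-detected: cell 4 at 10.5, cell 13 at 12.9, cell 7 at 15.7, cell 8 at 19.5 and cell 17 at 78.1. In the other group the highest values were 3.50 in cell 14 and 0.781 in cell 18. Its difference of 2.28 was 2.44 without the 4 cells and 1.44 when cell 17, which held its highest value, was counted as undetected by a Meg3 threshold of 5.

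AI662270 (chr11:83223576-83226604) was among the highest rows in either group. Its lowest, median and highest values were 0.104, 280 and 663 in Meg3-detected cells and 0, 29.3 and 268 in the others, so the ranges overlapped, although 6 Meg3-detected cells lay above every Meg3-undetected cell. The difference was 2.27 and fell to 1.08 without the 4 cells, of which 3 held 11.0 or less and cell 21 held 29.3.

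**Figure D4:**
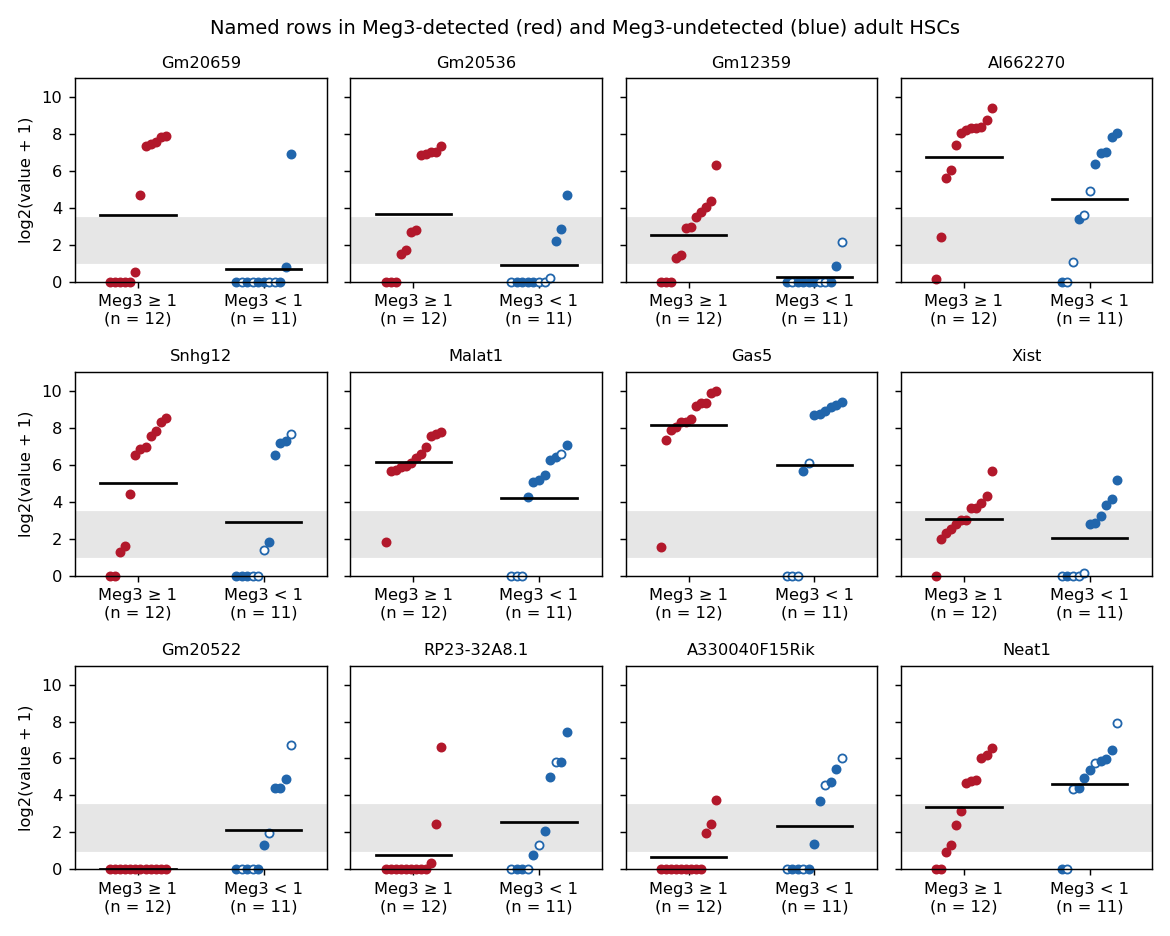
Log2(value + 1) of 12 named rows in Meg3-detected (red, n = 12) and Meg3-undetected (blue, n = 11) adult HSCs, 1 point per cell, with group means as black lines, open points for cells 10, 14, 21 and 25 and grey bands over values from 1 to 10. The open points make up all the zeros of Malat1 and Gas5, and the groups overlap in every panel.

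B230398E01Rik, in the gene of the MHC class II regulator Rfx5, was 19.0, 75.9, 112, 130 and 184 in 5 Meg3-detected cells and 27.1 in Meg3-undetected cell 12. It stayed under 1 elsewhere, and its difference was 2.27. 4930581F22Rik, over Dcps and St3gal4, was 63.7 to 150 in cells 7, 9, 2 and 20, 5.39 in cell 6 and 115 in Meg3-undetected cell 3, and its difference was 1.86. Neither difference fell under 1 without the 4 cells, at 2.07 and 1.5. 1700113A16Rik, in the gene of the transcription factor Mef2d, differed by 1.64 over all cells and by 0.61 without the 4, since 3 of them were at 0.

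Of the named rows, 5 stayed higher by 1 or more in each of 16 other settings in which they were compared: Gm26906, Gm20659, Gm20536, AI662270 and Snhg12. Gm26906 and Gm20659 did not pass a filter at 50% of cells and were not compared there. Of these, Snhg12 belongs to a family of known function.

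The list of host RNAs of snoRNAs, whose introns carry guide RNAs for ribosomal RNA modification, held 25 names and need not be complete. A host that the list does not name is not in its counts, whichever way it differed. Of the 25 names 6 were compared: 4 differences were above 0, 2 were higher by 1 or more, none of the 6 was lower by 1, and the median was 0.32. Over all rows 54.3% were above 0, 6.97% higher and 4.04% lower by 1, with a median of 0.04. Without the 4 cells these shares of the 717 rows were 47.0%, 4.04% and 8.23%, the background for this and the following lists. The list turned without the 4 cells, with 2 members above 0 and a median of -0.41. Snhg12 was at 1 or more in 10 of 12 against 6 of 11 cells and at 10 or more in 8 against 4. Its lowest, median and highest values were 0, 103 and 363 in Meg3-detected cells and 0, 1.57 and 198 in the others. The difference was 2.1 and 1.73 without the 4 cells, of which cell 10 held the highest value of its group.

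Gas5, a growth-arrest RNA that hosts snoRNAs, was above 1 in every Meg3-detected cell, with values from 1.87 in cell 7 to 1030 in cell 6 and a median of 338. In Meg3-undetected cells it was 0 in 3 and up to 679 in cell 12, with a median of 409. The difference of means was 2.15 while that of medians was -0.28, and without the 4 cells the difference of means was -0.40. Without all cells with Malat1 or Gas5 under 10 it was 0.085. Snhg6 was at 10 or more in 6 of 12 against 5 of 11 cells and differed by 0.38, or 0.54 without the 4 cells. Snhg5 was at 10 or more in 4 cells of each group and differed by -0.40, or -1.0 without them.

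Of the RNAs that build nuclear structures, 4 were compared, with a median of 0.47. Of their differences 3 were above 0, 1 was higher and 1 lower by 1 or more. Over all rows 54.3% were above 0, 6.97% higher and 4.04% lower by 1. Only 2 of these RNAs were above 0 without the 4 cells, and their median was -0.072. Malat1, a nuclear speckle RNA, had a lowest, median and highest value of 2.51, 74.1 and 213 in Meg3-detected cells and of 0, 35.3 and 134 in the others. Its difference was 1.95 (6.16 ± 1.57 against 4.21 ± 2.81, SD, n = 12 and 11 cells) and 0.49 without the 4 cells, or 0.97 without all cells with Malat1 or Gas5 under 10. RP24-458F14.4, a model inside the Malat1 span whose reads cannot be told from those of Malat1, differed by 1.68, and by 0.97 without the 4 cells.

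Neat1, the scaffold of paraspeckles, went the other way. It was at 10 or more in 6 of 12 Meg3-detected and 9 of 11 Meg3-undetected cells, with lowest, median and highest values of 0, 16.0 and 93.1 against 0, 39.8 and 240. The difference was -1.24, and -1.31 without the 4 cells, but -0.76 without all cells with Malat1 or Gas5 under 10, and the ranges overlapped. Tug1 differed by 0.34, and by -0.57 without the 4 cells, while 1700020I14Rik differed by 0.60 and 0.42.

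Xist, the RNA that coats the inactive X chromosome, was at 1 or more in 11 of 12 Meg3-detected and 6 of 11 Meg3-undetected cells, and at 10 or more in 5 against 3. It was 0 in cell 1 and from 2.99 to 49.1 in the other Meg3-detected cells. Among Meg3-undetected cells it was 0 in cells 10, 21, 25 and 26, 0.121 in cell 14 and 5.89 to 34.4 in the other 6. The difference of 1.06 became -0.062 without the 4 cells and -0.18 without all cells with Malat1 or Gas5 under 10. The 3 X inactivation RNAs compared had a median difference of 0.00, with 2 above 0, 1 higher by 1 or more and none lower by 1. Over all rows 54.3% were above 0, 6.97% higher and 4.04% lower by 1. Beside Xist the list held Firre, at -0.75, and Ftx, at 0.00. Without the 4 cells Firre stood at -1.58 and Ftx at -0.28, all 3 were below 0, and the median was -0.28.

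H19 was present at high level in cells of both groups. It was 88.6 in cell 2, 167 in cell 20, 184 in cell 1 and 872 in cell 22 among Meg3-detected cells, and 106 in cell 15, 154 in cell 11 and 1054 in cell 26 among the others, with 0.514 or less elsewhere. Both RNAs were at 1 or more in 4 cells, Meg3 alone in 8, H19 alone in 3 and neither in 8. The difference was 0.38 and turned to -0.80 without the 4 cells, none of which held H19 at 1 or more.

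The 4 imprinted non-coding RNAs compared, H19 among them, had a median difference of 0.08. Of these, 2 were above 0 and 2 below, where 54.3% of all rows were above 0, and none was past 1 in size. The median was -0.49 without the 4 cells, with 1 above 0. Kcnq1ot1, which silences its paternal neighbours, was at 1 or more in 7 of 12 against 3 of 11 cells and differed by 0.56. Airn, which silences Igf2r, was at 1 or more in 5 of 12 against 8 of 11 cells and differed by -0.58. Kcnq1ot1 never reached 10 and Airn did so in 1 cell, so both rest on the crowded decade. A330076H08Rik differed by -0.23. Without the 4 cells Kcnq1ot1 stood at 0.45, Airn at -0.70 and A330076H08Rik at -0.29.

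The 4 microRNA host RNAs compared had a median difference of 0.35, 3 above 0 and none past 1 in size. Over all rows 54.3% were above 0. All 4 host RNAs were above 0 without the 4 cells, with a median of 0.41 and Mir142hg past 1. Mir99ahg differed by 0.67 (0.47 without the 4 cells) and 2610203C20Rik by 0.61 (0.28), neither of them reaching 10 in any cell. Dleu2 differed by -0.28, and by 0.35 without the 4 cells. Mir142hg, host of a blood cell microRNA, differed by 0.09, and by 1.25 without them, with 2 cells at 10 or more in each group.

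Long non-coding RNAs known from blood or stem cells were compared in 7 members, with a median difference of 0.09, 4 above 0, 2 higher by 1 or more and none lower by 1, beside 54.3% above 0 and 6.97% higher by 1 over all rows. With the 4 cells left out, 5 were above 0, 1 was higher by 1 and the median was 0.35. Gm15135 was at 10 or more in 4 of 12 against 2 of 11 cells and differed by 1.43. Hoxb3os, antisense to the homeobox gene Hoxb3, was at 10 or more in 4 of 12 against 2 of 11 cells and differed by 1.02. Without the 4 cells these differences were 0.69 and 0.52. Gm14005 differed by -0.46 and Mecomos, antisense to the HSC regulator gene Mecom, by -0.39, both with no value of 10 or more. They stood at 0.081 and -0.48 without the 4 cells. The p53 and growth-arrest list had 3 members compared, with a median of 0.14 and 2 above 0, and of -0.40 and none above 0 without the 4 cells. Its members went opposite ways: Gas5 was higher by 1 or more, at 2.15, and Neat1 lower, at -1.24. Over all rows 6.97% were higher and 4.04% lower by 1. Pvt1, the remaining member of the list, differed by 0.14, and by -0.077 without the 4 cells.

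Among the lower rows Gm20522 stood first. It lies at chr17:35122738-35126440, over D17H6S53E and Gpank1. Gm20522 was 0 in all 12 Meg3-detected cells, a share for which the 95% interval reaches 26.5%. In Meg3-undetected cells it was 1.49 in cell 12, 2.96 in cell 10, 19.9 in cell 19, 20.0 in cell 15, 28.8 in cell 3 and 106 in cell 21, and 0 in the other 5. The difference was -2.16, and -2.14 without the 4 cells.

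RP23-32A8.1 (chr7:73544036-73558386), whose identifier belongs to 1810026B05Rik in the reference names, was at 10 or more in cell 2 alone, at 97.5, against 31.3, 55.4, 56.1 and 170 in cells 3, 21, 15 and 19. Its difference was -1.78, and -2.23 without the 4 cells. The row that itself bears the name 1810026B05Rik, which overlaps this model, differed by only -0.19, or -0.40 without the 4 cells. A330040F15Rik, in the gene of Fam111a, reached 10 in 1 Meg3-detected cell, at 12.7 in cell 6, and in 5 others, at 12.2 to 63.3, and differed by -1.67, or -1.51 without the 4 cells. Gm16229, in the gene of the transcriptional repressor Nab2, reached 10 in 0 against 3 cells and differed by -1.67, or -2.78 without them. Gm26683, in the gene of selenocysteine lyase, Scly, reached 10 in 2 against 4 cells and differed by -1.53, or -2.50 without them. Gm15648, over the ubiquitin-conjugating enzyme gene Ube2l3, reached 10 in 3 against 5 cells and differed by -1.55, or -2.37 without them.

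1110038B12Rik (chr17:34950238-34952471) was high in many cells of either group. Its lowest, median and highest values were 0, 3.61 and 283 in Meg3-detected cells and 0, 83.7 and 278 in the others, and 5 of 12 against 8 of 11 cells stood at 10 or more. The difference of -1.30 widened to -3.31 without the 4 cells, which held 0, 0, 1.27 and 11.3. 9830144P21Rik, in the gene of the phosphate transporter Slc20a1, differed by -1.47, and by -0.71 without the 4 cells, since 159.9 in 1 Meg3-undetected cell was its only value of 10 or more. Gimap1os, antisense to the lymphocyte GTPase gene Gimap1, differed by -1.34, or -2.44 without the 4 cells, with 1 against 4 cells at 10 or more. Gm26819, over Med10, differed by -1.31, or -1.34 without them, with 1 against 2.

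Of the remaining named rows, 5 never reached 10 in any cell. F630206G17Rik differed by -1.42 and 2610203C22Rik by -1.33, each with 3 of 12 against 8 of 11 cells at 1 or more and none at 10. Gm12680, over the matrix protein gene Adamtsl1, differed by -0.87 with none at 10. These stood at -1.68, -1.48 and -0.72 without the 4 cells. Among the higher rows, RP23-459L15.8, a model that overlaps Lincpint, differed by 1.64, or 1.29 without the 4 cells, with 3 against 1 cells at 10 or more. The Lincpint row itself differed by 0.04, or 0.10 without the 4 cells. Gm14552 and Gm14146 stood at 1 or more in 8 of 12 against 2 of 11 cells each, differed by 1.19 and 0.55, or 1.60 and 1.02 without the 4 cells, and never reached 10.

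By shares of cells at 1 or more, 4 rows were higher by 50 percentage points or more in Meg3-detected cells (0.558% of those compared) and 6 lower (0.837%). Beside Gm26906 and Gm12359, the higher ones were Gm11715, with 7 of 12 against 0 of 11 cells, and Gm26786, with 6 against 0. Gm11715, over the ribosome factor gene Nol11, lay between 2.45 and 10.3 in its 7 cells, and Gm26786 never passed 7.85. The lower ones beside Gm20522 were 1700034P13Rik with 2 of 12 against 9 of 11 cells, 2600014E21Rik with 1 against 7, and Gm14061, Gm12505 and Gm28675 with 0 against 6 each. Of these, 2600014E21Rik and Gm12505 each reached 10 in 1 cell and the rest in none. Without the 4 cells the difference of Gm12505 went from -1.17 to -0.36 and that of Gm14061 from -1.27 to -0.65, while Gm11715 stood at 1.57, Gm26786 at 1.26, 1700034P13Rik at -1.40, 2600014E21Rik at -1.11 and Gm28675 at -1.41. With values under 10 taken as 0 Gm26906 keeps 9 against 0 and Gm12359 5 against 0 cells, while Gm26786, 1700034P13Rik, Gm14061 and Gm28675 have no cell left in either group.

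In T1 pre-HSCs, 4 of 12 KO cells held Meg3 at 1 RPKM or more, with a highest value of 222, and none of 9 wildtype cells did, with a highest of 0.609. A wildtype cell whose column was out of step with its gene names was left out. Meg3 and Rian were both at 1 or more in 1 of these 21 cells, and Meg3 and Dlk1 in 1. The tables differ in method and unit, and levels were not compared between them.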

How the data were processed

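The deposited adult HSC table names no unit and was read as FPKM, the measure of Cufflinks 2.1.0, which the submitters' processing notes name with build mm10. The T1 pre-HSC values are RPKM by the authors, per the labels. No source used here gives the aligner, annotation, strand setting or handling of multi-mapped reads. Both are estimates scaled to length and to each cell's total, so depth per cell is unknown and an exact 0 can be a failed estimate. Of 27 adult cell columns, 2 carry the number 16 and were not used.

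For each row the mean of log2(value + 1) over Meg3-undetected cells was subtracted from that over Meg3-detected cells, which understates changes of low rows. Rows needed a value of 1 or more in at least 25% of cells. A difference of 1 was a rule of size, not a test. Intervals are Clopper-Pearson at 95% and cover counting error only. The script was tested on simulated data with raised levels, little noise and almost no zeros. That checked its arithmetic, not how the differences behave in values as sparse as these. Python 3.11.15, NumPy 2.4.6, pandas 2.3.3 and SciPy 1.17.1 were used. Row coordinates are the file's, written from 1.

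The members, gene lists and rules were chosen with earlier results of these data known. Named were Meg3, H19, the Dlk1-Dio3 RNAs, the 12 largest differences each way whose mean and median do not disagree in sign and whose symbol is in the reference names, the 6 largest differences in share each way, up to 4 members of each list, and up to 2 unmatched rows each way. The settings without 4 cells or without cells with Malat1 or Gas5 under 10, with values under 10 taken as 0, and with rows above 0 in 2 cells were chosen after seeing the data. The methylation libraries were not used here.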

Additional observations from a re-analysis of the deposited data

How the results depend on the processing

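No paired analysis was possible because all cells compared belong to 1 group and no test was made. Counts of rows higher and lower by 1 or more were 50 and 29. They were 153 and 113 with a pseudocount of 0.1, 9 and 0 with one of 10, 25 and 8 with a filter at 50% of cells, 77 and 81 with medians over cells, and 84 and 55 from the ratio of mean values. The lower count was 17 with cells 23 and 24. In the 11 Meg3-detected and 8 Meg3-undetected cells within the shared range of detected rows, 41 of 730 rows were higher and 61 lower. The median difference there was -0.087. Without the cells in which Malat1 or Gas5 is listed at 0 the counts were 28 and 59, and without those in which either is under 10 they were 29 and 60. With values under 10 taken as 0 and all 23 cells kept they were 29 and 9, with a median difference of 0.49. Leaving out each cell in turn gave 40 to 53 higher and 23 to 37 lower rows. Medians over cells turned Gas5 to -0.28, and leaving out the cells with Malat1 or Gas5 at 0 turned Gas5 to -0.40, Xist to -0.062 and Gm28933 to -0.022. Leaving out those with either under 10 turned Xist to -0.18 and Gm28933 to -0.11 but left Gas5 at 0.085. Of 38 named rows past 1, 23 kept their direction in all 16 settings other than leaving out single cells, and 5 stayed past 1. Of the other 15, 7 had no value of 10 or more and so stood at 0 once smaller values did, 5 had a difference of medians of 0, and 3 changed sign as given. Rows detected per cell kept medians within the cells' spread in every setting tried. All cells are 1 sample of unknown animals, the unit is unnamed and no depth is known, so no difference here carries an error between animals.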

Other observations

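Among rows above 0 in exactly 1 of the 25 adult HSCs with a column name of their own, the order of the table followed the cells and the values. There were 2473 such rows. Of their 2472 neighbouring pairs, 47.5% fell in the same cell, where the cells' frequencies alone give 4.12%, and in 98.0% of those pairs the later value was not higher. In all, 1608 of the rows, 65.0%, lay in 4 runs of at least 50 rows with falling values. None of the 717 rows compared is in such a run, while Dio3os, Gm26945 and Gm28498 near Meg3 are. Cells 23 and 24 shared the digits of 179 rows, against 1 pair of values among the 23 cells compared.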
